A study of Mus musculus with 8 samples.

Results

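The collagen genes are the 43 genes, of 36808 in the table, whose symbol has the form Col, a number, the letter a and a number, which is how mouse symbols name the chains of collagen. The symbol alone decided which genes are members, with no measured value, though earlier results of these data were known. By the make-up of their chains they fall into 11 fibrillar genes, 6 genes of basement membrane type IV, 6 of type VI, 9 of the FACIT group (fibril-associated collagens), 2 multiplexins, 4 transmembrane collagens, 3 that form hexagonal networks and 2 others.

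The study asked how Polycomb repressive complex 2 (PRC2), which places the repressive histone mark H3K27me3, acts while mouse embryonic stem cells (ESCs) turn into spinal motor neurons (SMNs). RNA was sequenced from 8 libraries, with 1 library per condition. The ESC libraries were E14 wild type (129/Ola), CJ7 wild type (129/S), Suz12delta (C57/BL6) and Eednull (BALB/cR1), and the libraries of day 5 of SMN differentiation were E14, Suz12GT (129/Ola), Suz12delta and Eednull. Suz12delta ESCs carry a truncation of SUZ12 and Eednull ESCs a point mutation of Eed, and both, here called the null lines, were described as having almost no H3K27me3, whereas Suz12GT is a gene trap that fuses SUZ12 to β-galactosidase and leaves the mark in place at a reduced level. Each mutant is 1 cell line. An RNA-seq library of Suz12GT ESCs was not analysed here. For differentiation, LIF was withdrawn and retinoic acid and a Hedgehog agonist were added. ESCs of every line were grown on irradiated mouse embryonic fibroblasts, called feeders, and a short plating step was meant to take these out before ESCs were collected or differentiated. Feeders make collagen themselves, so the fibroblast markers of each library are given beside the collagen values.

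The values are FPKM, counts of sequenced fragments scaled by transcript length and library size, so levels can be set side by side between genes per length. How many reads a library had is unknown, so no counting interval is given, and with 1 library a condition none of the differences could be checked against replicates. Ratios are log2 of FPKM plus 0.1, and a gene is called higher or lower in a comparison if it differs at least 2-fold on this scale and reaches 0.1 FPKM in at least 1 of the 2 libraries. An exact 0 is written as listed at 0. Suz12 was 41.3 FPKM in E14 and 53.1 FPKM in CJ7 ESCs and 6.21 FPKM in Suz12delta ESCs. At day 5 it was 16.2, 10.3, 11.6 and 17.6 FPKM in E14, Suz12GT, Suz12delta and Eednull cells, so it did not set the Suz12delta library apart there. Eed, which carries a point mutation in Eednull cells, was 18.8 to 50.9 FPKM in ESCs. The 6 pluripotency markers summed to 350 to 720 FPKM in the ESC libraries and to 0.776 to 13.4 FPKM at day 5. The 7 markers of motor neurons and their progenitors summed at day 5 to 112 FPKM in E14, 93.1 FPKM in Suz12GT, 17.8 FPKM in Suz12delta and 16.7 FPKM in Eednull cells, so the last 2 lines were far below E14. Against its own ESCs, Suz12delta had 4 of 5 of these markers higher at day 5 (26.9% of all genes) and Eednull 2 of 5 (18.4% of all genes), beside 6 of 6 in E14 (18.3% of all genes). Tubb3 of this list was at 0 in the 8 libraries. By the sample labels the CJ7 library was prepared and sequenced together with a library that, by its column name, is that of Eednull ESCs. The strain background, the line and the genotype of Suz12delta and Eednull cells cannot be told apart in comparisons with E14. Eednull and CJ7 ESCs against E14 ESCs, and Suz12delta ESCs against CJ7 ESCs, also cross this batch, which cannot be told apart there either.

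Collagens are secreted or membrane-bound proteins in which 3 chains wind into a triple helix. Fibrillar collagens pack end to end into the fibrils of skin, bone, tendon and cartilage, type IV collagen forms the sheet-like network of basement membranes together with laminin, nidogen and perlecan, and most other classes sit on fibrils, link layers of matrix or span the cell membrane. In the early embryo type IV collagen is made by the endoderm that lays down Reichert's membrane and under epithelia, and type I and type III collagen are typical products of fibroblasts and other mesenchymal cells.

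The 43 genes lie on 14 chromosomes of NCBI build 37, and 13 of them have another collagen gene within 50000 bases. Col4a1 (chromosome 8, 11198423 to 11312826, minus strand) and Col4a2 (11312805 to 11449287, plus strand) stand head to head, so that their annotated first exons overlap by 22 bases. Col4a3 and Col4a4 stand head to head on chromosome 1 with 71 bases between them, and Col4a5 and Col4a6 on chromosome X with 1308 bases between them. Col3a1 (chromosome 1, 45368383 to 45406551) and Col5a2 (45431166 to 45560127) are 24614 bases apart and face each other with their 3′ ends. The shared 22 bases of the type IV pair are shown because both promoters meet there. They read on the plus strand, at chr8:11312805-11312826 of GRCm38.p6, from the RefSeq windows:

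Col4a1 and Col4a2: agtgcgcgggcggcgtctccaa

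RefSeq windows around the start were found for 35 of the 43 genes. The 250 bases before the start are shown for Col1a2, Col3a1 and Col6a3, which had the lowest log2 ratios of day 5 over ESCs in wild-type E14 among those 35. Capitals mark a CCAAT box (CCAAT or, on the other strand, ATTGG), a GC box (GGGCGG or CCGCCC) or a TATA box (TATAAA or TTTATA). They are chr6:4505368-4505617 on the plus strand, chr1:45311288-45311537 on the plus strand and chr1:90843972-90844221 on the minus strand of GRCm38.p6:

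Col1a2: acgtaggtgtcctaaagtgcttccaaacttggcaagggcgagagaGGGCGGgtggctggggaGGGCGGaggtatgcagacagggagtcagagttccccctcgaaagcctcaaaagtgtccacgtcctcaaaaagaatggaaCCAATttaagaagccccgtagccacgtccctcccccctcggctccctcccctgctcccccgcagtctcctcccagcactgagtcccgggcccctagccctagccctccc
Col3a1: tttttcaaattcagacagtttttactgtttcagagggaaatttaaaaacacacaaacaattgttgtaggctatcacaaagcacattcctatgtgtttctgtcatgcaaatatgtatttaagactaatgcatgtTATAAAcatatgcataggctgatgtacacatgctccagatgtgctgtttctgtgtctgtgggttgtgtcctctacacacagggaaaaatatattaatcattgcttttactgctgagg
Col6a3: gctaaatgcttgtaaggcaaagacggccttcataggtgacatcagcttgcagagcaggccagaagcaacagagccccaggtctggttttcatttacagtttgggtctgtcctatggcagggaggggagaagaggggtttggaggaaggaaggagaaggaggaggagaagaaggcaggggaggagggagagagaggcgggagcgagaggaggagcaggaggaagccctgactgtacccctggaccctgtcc

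The Col1a2 window holds a CCAAT box 109 bases and GC boxes 205 and 188 bases before the start, the Col3a1 window holds a TATA box 117 bases before it, and the Col6a3 window holds none of these letters. A CCAAT box was in a window of 13 of the 35 collagen genes, a GC box of 21 and a TATA box of 5. Of all 32851 windows, 33.8% held a CCAAT box, 32.7% a GC box and 12.4% a TATA box. The collagen counts are by gene, with any of its windows, and the shares are by window, so they are not directly comparable. These counts describe letters only.

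Collagen RNA was highest in Suz12delta ESCs and lowest in wild-type day 5 cells. The 43 genes summed to 184 FPKM in E14, 180 FPKM in CJ7, 760 FPKM in Suz12delta and 406 FPKM in Eednull ESCs, and to 80.5 FPKM in E14, 187 FPKM in Suz12GT, 327 FPKM in Suz12delta and 218 FPKM in Eednull cells at day 5. Of all FPKM in a library these sums were 0.0231% in E14, 0.025% in CJ7, 0.195% in Suz12delta and 0.072% in Eednull ESCs. At day 5 they were 0.0165% in E14, 0.0443% in Suz12GT, 0.0711% in Suz12delta and 0.0541% in Eednull cells. The total over all genes differed too, at 797748 FPKM in E14 and 389165 FPKM in Suz12delta ESCs, so these shares also reflect the total. Most members were low. Only 5 genes, Col2a1, Col5a1, Col4a1, Col4a2 and Col18a1, were at 1 FPKM or more in each of the 8 libraries, 20 reached 5 FPKM in at least 1 library, 11 peaked between 1 and 5 FPKM, and 12 never reached 1 FPKM.

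**Figure D1:**
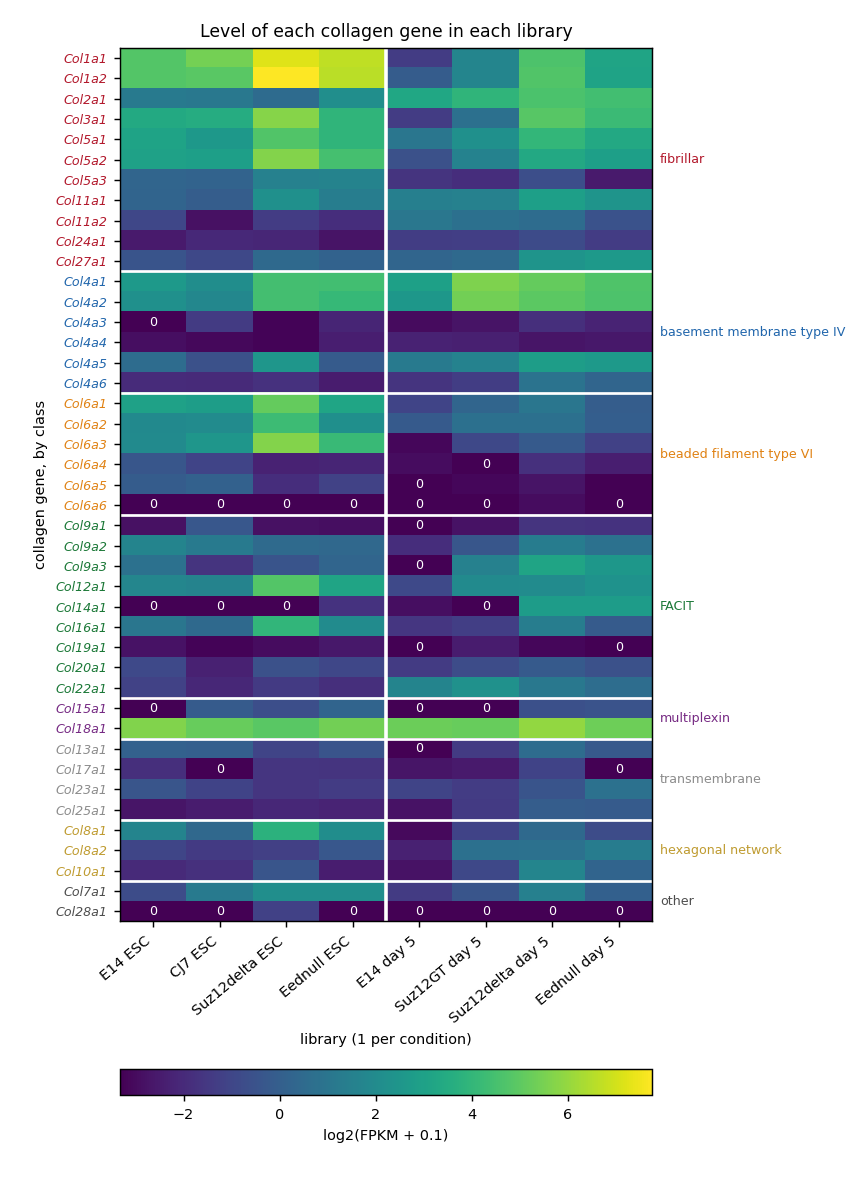
Heat map of the 43 collagen genes (rows, by class) in the 8 libraries (columns, ESCs left and day 5 right, 1 library each), coloured by log2(FPKM + 0.1). A white 0 marks a value listed at 0. Type I chains are brightest in Suz12delta ESCs and dark in E14 at day 5, Col4a1 and Col4a2 are brightest in Suz12GT at day 5, and Col18a1 is bright throughout.

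The mix of classes differed between libraries. Fibrillar chains took 47.5% of the collagen FPKM in E14 ESCs, 57.5% in CJ7, 66.7% in Suz12delta and 65.3% in Eednull ESCs, but 24.4% in E14 and 19.5% in Suz12GT cells at day 5. Type IV chains took 4.73% to 9.68% in the ESC libraries and 19.8% in E14, 50.2% in Suz12GT, 22.7% in Suz12delta and 26.8% in Eednull cells at day 5. Type VI chains took 7.84% to 14.05% in ESCs and 0.996% to 1.70% at day 5. Suz12GT day 5 was thus the library in which type IV chains made up the greatest share, and Suz12delta ESCs that with the greatest fibrillar share.

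**Figure D2:**
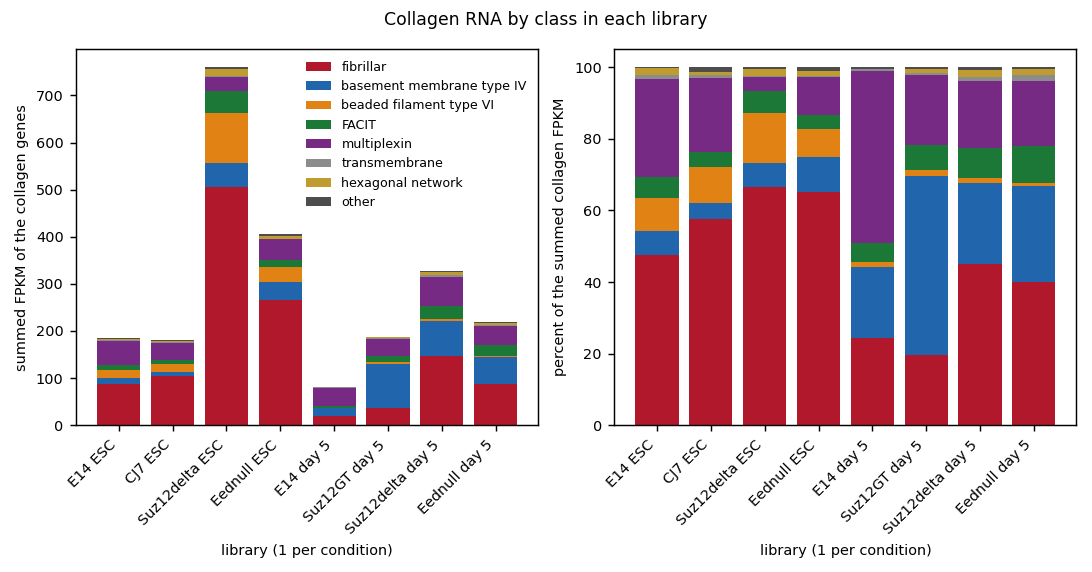
Stacked bars of collagen RNA by class in each library, as summed FPKM on the left and as percent of that sum on the right (1 library per bar, no error bar). The sum is 760 FPKM in Suz12delta ESCs and 80.5 FPKM in E14 at day 5, and type IV is 50.2% of the sum in Suz12GT at day 5.

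Type I collagen, the main protein of bone, skin and tendon fibrils, was the strongest fibrillar signal in ESC libraries. Col1a1 was 27.9, 43.5, 148 and 104 FPKM in E14, CJ7, Suz12delta and Eednull ESCs and 0.290, 3.21, 25.4 and 8.68 FPKM in E14, Suz12GT, Suz12delta and Eednull cells at day 5. Its partner chain Col1a2 was 27.4, 30.4, 215 and 96.5 FPKM in these ESCs and 0.821, 3.17, 26.8 and 8.60 FPKM at day 5. Both chains were highest in Suz12delta ESCs and lowest in E14 day 5 cells, and among the ESC libraries the 2 mutants were above the 2 wild types. The ratio of Col1a1 to Col1a2 was between 0.353 and 1.43 in the 8 libraries, while Col1a1 itself spanned a 509.5-fold range.

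Col3a1, whose type III fibrils run with type I in extensible tissues, was 10.3, 11.5, 53.9 and 15.2 FPKM in E14, CJ7, Suz12delta and Eednull ESCs and 0.292, 1.59, 29.6 and 18.8 FPKM in E14, Suz12GT, Suz12delta and Eednull cells at day 5. Its neighbour Col5a2, a chain of the type V collagen that helps to start fibrils, was 7.97, 7.59, 52.5 and 22.5 FPKM in ESCs and 0.573, 2.88, 10.2 and 7.49 FPKM at day 5. Col5a1, the other main type V chain, was 8.54, 5.92, 27.1 and 15.0 FPKM in ESCs and 1.94, 4.59, 15.9 and 10.0 FPKM at day 5. These 3 genes were also highest in Suz12delta ESCs and lowest in E14 day 5 cells. Col3a1 differed from type I in Eednull cells, where it was within 2-fold between the days (log2 ratio 0.30) while Col1a1 was lower at day 5 (log2 ratio -3.57).

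The fibrillar chains of cartilage had the opposite order over time. Col2a1, the main collagen of cartilage, also made by the notochord and parts of the embryonic nervous system, was 2.22, 2.09, 1.36 and 4.39 FPKM in E14, CJ7, Suz12delta and Eednull ESCs and 9.49, 14.9, 24.1 and 21.0 FPKM in E14, Suz12GT, Suz12delta and Eednull cells at day 5, so each of the 4 day 5 libraries was above each of the 4 ESC libraries. Col11a1, which joins type II in cartilage fibrils, was 1.10, 0.850, 4.59 and 2.47 FPKM in ESCs and 2.63, 2.82, 7.48 and 5.20 FPKM at day 5. Col27a1, a fibrillar collagen of developing cartilage, was 0.637, 0.425, 1.27 and 1.03 FPKM in ESCs and 1.11, 1.28, 5.28 and 6.24 FPKM at day 5, where the 2 null lines were above the other libraries. The other 3 fibrillar genes were low, Col5a3 at up to 2.96 FPKM in Eednull ESCs, Col11a2 at up to 1.98 FPKM in E14 day 5 cells and Col24a1 at up to 0.479 FPKM.

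Type IV collagen behaved as a pair of chains and 4 minor genes. Col4a1 was 6.32, 4.17, 21.9 and 21.2 FPKM in E14, CJ7, Suz12delta and Eednull ESCs and 7.67, 48.1, 34.5 and 26.3 FPKM in E14, Suz12GT, Suz12delta and Eednull cells at day 5. Col4a2, which joins it in the network common to all basement membranes, was 4.62, 3.34, 21.9 and 16.9 FPKM in ESCs and 5.67, 42.3, 31.0 and 24.9 FPKM at day 5. The 5 mutant libraries were above the 3 wild-type libraries for both chains, and the highest was Suz12GT at day 5. Between the head-to-head genes the ratio of Col4a1 to Col4a2 stayed between 0.9996 and 1.37 while Col4a1 spanned an 11.5-fold range, the narrowest ratio range among the 9 pairs of partner chains compared.

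Col4a5, which serves basement membranes of the kidney and smooth muscle, was 1.39, 0.567, 5.55 and 0.812 FPKM in E14, CJ7, Suz12delta and Eednull ESCs and 2.24, 2.94, 6.98 and 6.01 FPKM in E14, Suz12GT, Suz12delta and Eednull cells at day 5. Its head-to-head neighbour Col4a6 was 0.160, 0.146, 0.199 and 0.0801 FPKM in ESCs and 0.222, 0.305, 1.78 and 1.12 FPKM at day 5. The ratio of Col4a5 to Col4a6 ranged from 3.89 to 27.8, wider than that of the first pair. Col4a3, a chain of mature kidney basement membrane, was listed at 0 in E14 ESCs and was 0.280, 0.00934 and 0.119 FPKM in CJ7, Suz12delta and Eednull ESCs and 0.0241, 0.0488, 0.181 and 0.112 FPKM at day 5. Col4a4, its partner, was 0.0345, 0.0162, 0.00874 and 0.08998 FPKM in ESCs and 0.1096, 0.0969, 0.0546 and 0.0659 FPKM at day 5, so both were near the low end of the table in all libraries.

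Type VI collagen, a beaded filament around cells of connective tissue and muscle, was a signal of ESC libraries. Col6a1 was 8.01, 7.11, 35.2 and 8.91 FPKM in E14, CJ7, Suz12delta and Eednull ESCs and 0.384, 1.11, 1.95 and 0.849 FPKM in E14, Suz12GT, Suz12delta and Eednull cells at day 5. Col6a2 was 3.75, 3.90, 18.9 and 4.52 FPKM in ESCs and 0.780, 1.62, 1.62 and 0.892 FPKM at day 5. Col6a3 was 3.79, 5.53, 52.3 and 17.9 FPKM in ESCs and 0.0129, 0.429, 0.779 and 0.338 FPKM at day 5. For these 3 chains each ESC library was above each day 5 library, and Suz12delta was the highest of the ESCs. The alternative chains Col6a4 and Col6a5 were at most 0.680 FPKM (E14 ESCs) and 0.975 FPKM (CJ7 ESCs), and Col6a6 was listed at 0 in 7 libraries.

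Among the FACIT genes, whose products decorate fibrils, Col12a1 was 3.25, 2.99, 27.3 and 8.68 FPKM in E14, CJ7, Suz12delta and Eednull ESCs and 0.441, 3.84, 3.98 and 4.96 FPKM in E14, Suz12GT, Suz12delta and Eednull cells at day 5. Col16a1 was 1.92, 1.29, 15.5 and 4.004 FPKM in ESCs and 0.235, 0.318, 2.45 and 0.809 FPKM at day 5. Both were highest in Suz12delta and next in Eednull ESCs, as the type I chains were. Col9a3, a chain of the type IX collagen that coats type II fibrils, was 1.63, 0.218, 0.632 and 1.11 FPKM in ESCs, was listed at 0 in E14 day 5 cells and was 2.80, 8.71 and 5.70 FPKM in Suz12GT, Suz12delta and Eednull day 5 cells. Col14a1, which binds fibrils of tendon and skin, was listed at 0 in E14, CJ7 and Suz12delta ESCs, was 0.203 FPKM in Eednull ESCs, and at day 5 was 0.0342 FPKM in E14, listed at 0 in Suz12GT and 6.77 and 6.80 FPKM in Suz12delta and Eednull cells. It was thus near 0 outside the day 5 libraries of the 2 null lines. Of the other 5 FACIT genes, Col22a1 was under 0.4 FPKM in ESCs and 3.08, 4.78, 2.05 and 1.44 FPKM at day 5, Col9a2 peaked at 3.12 FPKM in E14 ESCs, and Col9a1, Col19a1 and Col20a1 stayed under 1 FPKM.

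Col18a1, a multiplexin of basement membranes and the source of endostatin, had the narrowest range of the 43 genes. It was 50.3, 36.3, 30.4 and 42.2 FPKM in E14, CJ7, Suz12delta and Eednull ESCs and 38.5, 36.5, 61.0 and 39.5 FPKM in E14, Suz12GT, Suz12delta and Eednull cells at day 5. It had the highest collagen value in E14 ESCs and in E14, Suz12delta and Eednull day 5 cells. The other multiplexin, Col15a1, was listed at 0 in E14 ESCs, E14 day 5 and Suz12GT day 5 cells and peaked at 1.10 FPKM in Eednull ESCs. Col8a1, a chain of hexagonal networks in vessels and the cornea, was 3.10, 1.25, 13.6 and 4.16 FPKM in ESCs and 0.0231, 0.362, 1.29 and 0.494 FPKM at day 5. The 2 remaining network genes had their highest values in the null day 5 libraries: Col8a2 at 2.43 FPKM in Eednull cells, and Col10a1, made by hypertrophic cartilage, at 3.17 FPKM in Suz12delta cells. The 4 transmembrane genes peaked between 0.366 FPKM (Col17a1) and 1.63 FPKM (Col23a1), Col7a1, the anchoring fibril collagen of skin, reached 4.35 FPKM in Eednull ESCs, and Col28a1 was above 0 in Suz12delta ESCs alone, at 0.344 FPKM.

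In ESCs of the null lines, more collagen genes were higher than lower. In Suz12delta against E14 ESCs, 37 of the 43 genes passed the minimum, 20 were higher, where 18.0% of all genes tested were higher, and 6 were lower, where 22.8% of all genes were lower. The median log2 ratio of the 37 was 1.61, beside -0.28 over all genes. After scaling to the same 75th percentile, 21 were higher and 2 lower, but the shares of all genes given here are of the unscaled values. The 20 included 7 of 11 fibrillar genes, 3 of 6 type IV genes and 3 of 6 type VI genes, with Col6a3 at 3.75, Col12a1 at 3.03, Col1a2 at 2.97, Col16a1 at 2.95 and Col5a2 at 2.70. In Eednull against E14 ESCs, 14 of 37 were higher (22.4% of all genes) and 3 lower (11.9% of all genes), with a median of 0.55 beside 0.04 over all genes. There Col6a3 was at 2.21, Col1a1 at 1.90, Col4a2 at 1.85 and Col4a1 at 1.73, while Col6a1 and Col6a2 were at 0.15 and 0.26. With a pseudocount of 1 in place of 0.1, 9 were higher in Eednull and 0 lower in either mutant, but the shares of all genes were taken with 0.1 only.

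Against CJ7, the other wild type, which shares its batch with Eednull ESCs by the labels, the Eednull counts were 19 higher (20.5% of all genes) and 3 lower (10.7% of all genes) of 39, with a median of 0.96 beside 0.14, and Col4a1 and Col4a2 were at 2.32 and 2.31. The Suz12delta counts against CJ7 were 23 higher (21.1% of all genes) and 5 lower (24.0% of all genes) of 39, with a median of 1.39 beside -0.18. Between the 2 wild types, CJ7 against E14, 4 of 37 collagens were higher (15.7% of all genes) and 6 lower (14.7% of all genes), with a median of -0.17 beside -0.12, which turned to 0.0459 once libraries were scaled to the same 75th percentile. The type I chains were at 0.64 and 0.15 in that comparison and the type IV pair at -0.59 and -0.46, below the log2 ratios of either mutant. The comparisons with E14 share its library, and so do those with CJ7.

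Fibroblast markers also summed higher in the ESCs of the null lines than in those of the wild types. Between the wild types the marker sum was lower in CJ7 than in E14, while the summed type I chains were 55.3 FPKM in E14 and 73.8 FPKM in CJ7. The 13 markers (Thy1, Pdgfrb, Fbn1, Postn, Lum, Dcn, S100a4, Twist2, Prrx1, Fap, Mmp2, Acta2 and Tagln, some of which other mesenchymal cells also make) summed to 125 FPKM in E14 and 95.6 FPKM in CJ7 ESCs, to 669 FPKM in Suz12delta and to 235 FPKM in Eednull ESCs, and none was at 0 in an ESC library. In Suz12delta against E14 ESCs, 12 of the 13 were higher (18.0% of all genes), with a median log2 ratio of 2.12 and a range of 0.97 to 3.54. Of 37 collagens, 1 (Col6a3) was above that range, 19 within it and 17 below it. In Eednull against E14 ESCs, 4 of 13 markers were higher (22.4% of all genes), with a median of 0.84 and a range of -0.05 to 1.80. Of 37 collagens, 18 were within that range and 13 below it. The 6 above it were Col1a1, Col1a2, Col4a2, Col6a3, Col15a1 (listed at 0 in E14) and Col7a1. In CJ7 against E14, 4 of 37 collagens were above the marker range too, Col15a1 and Col7a1 among them. Against CJ7 the highest marker in Eednull ESCs was at 1.59, and 8 of 39 collagens were above it. The type IV pair, Col1a2 and Col6a3 were among them, but not Col15a1 or Col7a1.

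Set against the marker sum, the summed type I chains were 0.443 of it in E14, 0.773 in CJ7, 0.542 in Suz12delta and 0.856 in Eednull ESCs, with S100a4 alone at 281 of the 669 FPKM of Suz12delta ESCs. The 3 main type VI chains were 0.125, 0.173, 0.159 and 0.133 of it in the same order, and for Col4a1 plus Col4a2 the values were 0.0876, 0.0786, 0.0655 and 0.162. Without S100a4 the type I values were 0.570, 0.931, 0.933 and 1.06, the type VI values 0.160, 0.209, 0.274 and 0.166 and the type IV values 0.113, 0.0947, 0.113 and 0.202. The place of Suz12delta beside the wild types thus depended on 1 marker. For type VI it moved from between them to above them. For type I it moved from between them to level with CJ7, and for type IV from below both to level with E14. RNA of feeders left in the culture and RNA made by the ESCs cannot be told apart in these bulk libraries, nor can fewer cells of a type from less RNA per cell. Markers of extraembryonic endoderm, cells that secrete type IV collagen in the embryo, were also higher in sum in the null lines. The 12 markers summed to 8.49 FPKM in E14, 8.85 FPKM in CJ7, 51.0 FPKM in Suz12delta and 73.2 FPKM in Eednull ESCs. The 2 null lines had the reverse order for the Col4a1 and Col4a2 sum, 43.8 FPKM in Suz12delta and 38.2 FPKM in Eednull ESCs. Dab2 alone made up 28.6 FPKM of the marker sum in Suz12delta and 28.5 FPKM in Eednull ESCs. Gata4, a transcription factor of endoderm and heart, was 0.653, 1.27, 2.94 and 11.4 FPKM in E14, CJ7, Suz12delta and Eednull ESCs. Afp was listed at 0 in E14, CJ7 and Suz12delta ESCs and was 0.0772 FPKM in Eednull ESCs. The part of either marker list in the collagen values was not tested.

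**Figure D3:**
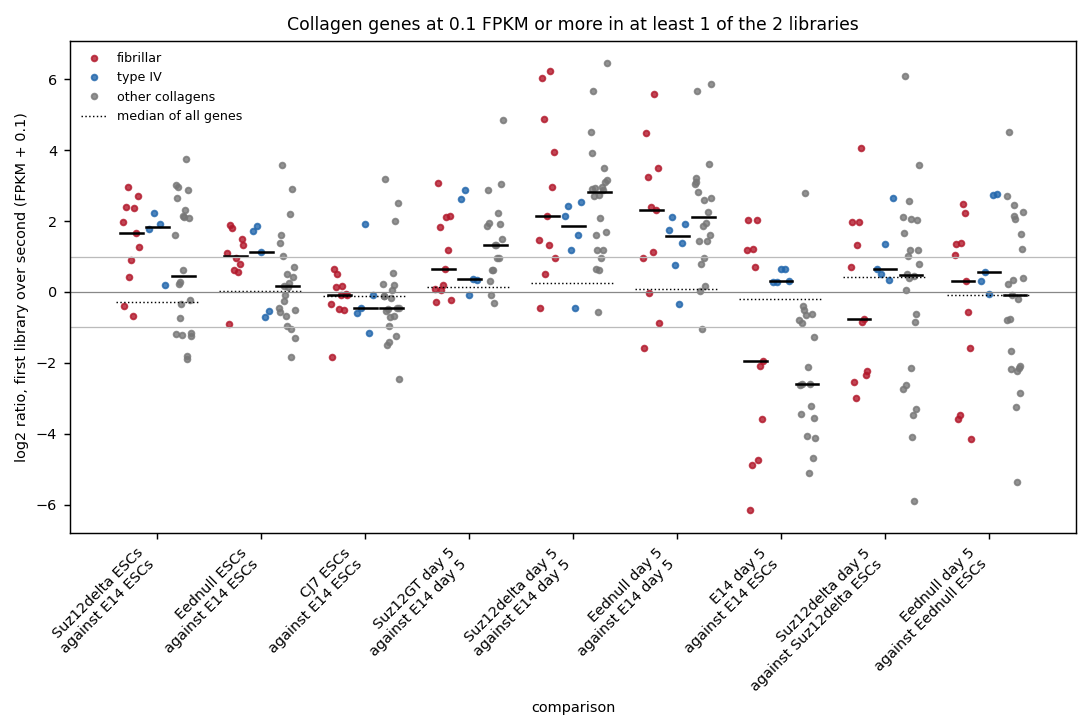
Log2 ratios of collagen genes (1 point a gene that reaches 0.1 FPKM in at least 1 of the 2 libraries) in the 9 comparisons, for fibrillar, type IV and other collagens, with the median of each group as a short black bar, the median of all genes as a dotted line and 2-fold limits as grey lines. Points of genes listed at 0 in 1 library depend on the pseudocount of 0.1. The medians of type IV are above 0 in each mutant comparison and in E14 over time, where those of the other 2 groups are below -1.

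At day 5 the 3 mutants had more collagen RNA than E14. In Suz12GT, 17 of 33 genes that passed the minimum were higher (16.8% of all genes) and 0 were lower (4.4% of all genes), with a median log2 ratio of 1.197 beside 0.13. In Suz12delta 31 of 39 were higher (26.6% of all genes) and 0 lower (9.52% of all genes), with a median of 2.43 beside 0.26, and in Eednull 26 of 37 were higher (21.6% of all genes) and 2 lower (11.3% of all genes), with a median of 1.92 beside 0.08. The 2 lower genes were Col11a2 at -1.57 and Col22a1 at -1.05. With a pseudocount of 1, 9 were higher in Suz12GT and 16 in Eednull, without a share of all genes at that setting. These comparisons share the E14 day 5 library, in which 8 of the 43 genes were listed at 0.

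The profile of Suz12GT, which keeps some H3K27me3, was not that of the null lines. Its 2 most abundant collagens were Col4a1 and Col4a2, at log2 ratios to E14 of 2.63 and 2.88, beside 2.15 and 2.43 in Suz12delta and 1.76 and 2.12 in Eednull. For type I the ratios of Col1a1 and Col1a2 were 3.09 and 1.83 in Suz12GT, 6.03 and 4.87 in Suz12delta and 4.49 and 3.24 in Eednull, and for Col3a1 they were 2.10, 6.24 and 5.59. The summed type IV pair was 14.2 times the summed type I pair in Suz12GT and 12.0 times in E14, but 1.25 times in Suz12delta and 2.96 times in Eednull cells. Suz12GT thus had a ratio of type IV to type I closer to that of E14, whose strain it shares, than to those of the null lines, at a higher level of both.

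Fibroblast marker sums at day 5 had the order of the type I sums, lowest in E14, then Suz12GT, Eednull and Suz12delta, which was not the order of the type IV sums. The 13 fibroblast markers summed to 17.7 FPKM in E14, with S100a4, Prrx1, Lum and Fap listed at 0, to 34.7 FPKM in Suz12GT, with Fap at 0, and to 146 FPKM in Suz12delta and 93.1 FPKM in Eednull cells, with none at 0. S100a4, the highest marker in Suz12delta ESCs at 281 FPKM, was 2.57, 1.75 and 0.423 FPKM in Suz12GT, Suz12delta and Eednull day 5 cells, whereas Mmp2, a matrix protease, was 0.919 FPKM in E14, 3.15 FPKM in Suz12GT and 16.6 and 12.6 FPKM in the null lines. The 12 endoderm markers summed to 28.5 FPKM in E14, 68.6 FPKM in Suz12GT, 80.9 FPKM in Suz12delta and 86.2 FPKM in Eednull cells. In each mutant 11 of 12 were higher than in E14, where 16.8%, 26.6% and 21.6% of all genes were higher in Suz12GT, Suz12delta and Eednull cells. Pth1r, a hormone receptor, made up 23.1 of the 28.5 FPKM in E14, and without it the sums were 5.44, 42.7, 58.0 and 61.1 FPKM. Gata4 was listed at 0 in E14 and was 11.6, 10.3 and 12.1 FPKM in the mutants, and Foxa2, which endoderm and floor plate both express, was 2.96 FPKM in E14 and 11.8, 12.0 and 13.5 FPKM. The part of these cells in the collagen values was not tested.

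Partners of type IV collagen were mostly higher too in the day 5 mutants. Of 17 laminin, nidogen and other basement membrane genes, 10 were higher in Suz12GT (16.8% of all genes), 12 in Suz12delta (26.6%) and 12 in Eednull day 5 cells (21.6%) against E14. In each 1 was lower (4.4%, 9.52% and 11.3% of all genes), and 6, 4 and 4 were within 2-fold. Over time they parted from type IV in E14, where 12 of 17 were lower at day 5 than in ESCs (25.8% of all genes) and 3 higher (18.3% of all genes), with a median of -2.50. Lamb1, the beta chain of the main embryonic laminin, was 1.52 FPKM in E14 and 55.4, 50.5 and 54.1 FPKM in Suz12GT, Suz12delta and Eednull cells. Nid1, which links laminin to type IV collagen, was 0.486 FPKM in E14 and 11.7, 10.2 and 7.01 FPKM in the mutants, and its relative Nid2 was 1.43 FPKM and 12.4, 23.5 and 15.4 FPKM. In Suz12GT these 3 genes were close to the null lines, but Lama5, an alpha chain of epithelial basement membranes, was 2.60 FPKM in E14, 3.85 FPKM in Suz12GT and 29.3 and 24.2 FPKM in the null lines. Lama4, an alpha chain of vessels and muscle, was 0.0487, 0.263, 1.42 and 1.16 FPKM in the same order.

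**Figure D4:**
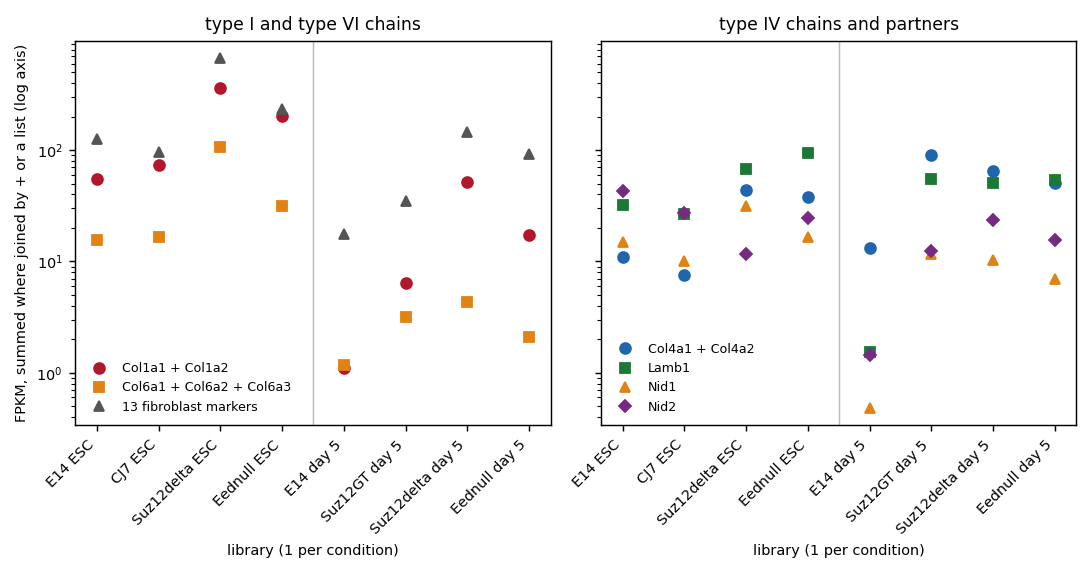
FPKM on a log axis in the 8 libraries (ESCs left of the grey line, day 5 right; 1 point a library), with the summed type I chains, summed type VI chains and the sum of 13 fibroblast markers on the left and the summed Col4a1 and Col4a2 with Lamb1, Nid1 and Nid2 on the right. In E14 at day 5 the type I sum is 1.11 FPKM and the type IV sum 13.3 FPKM, and in Suz12GT they are 6.38 and 90.5 FPKM.

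Cartilage-type chains differed in both directions at day 5. Against E14, the log2 ratios in Suz12delta and Eednull cells were 1.34 and 1.14 for Col2a1, 1.47 and 0.96 for Col11a1, 2.15 and 2.39 for Col27a1 and 4.51 and 3.05 for Col10a1, and in Suz12GT they were 0.65, 0.10, 0.19 and 1.86. Col9a3 was at 6.46 in Suz12delta, 5.86 in Eednull and 4.86 in Suz12GT. These ratios depend on the added 0.1, since E14 lists the gene at 0, and its highest value was 8.71 FPKM in Suz12delta. Col11a2, the partner of Col11a1 in cartilage fibrils, went the other way, with 1.98, 1.60, 1.42 and 0.597 FPKM in E14, Suz12GT, Suz12delta and Eednull cells. Of 7 chondrogenic markers, 5 of 7 that passed the minimum were higher than in E14 in Suz12delta (26.6% of all genes), 4 of 6 in Eednull (21.6% of all genes) and 2 of 4 in Suz12GT cells (16.8% of all genes), and they summed to 11.6, 12.3, 34.6 and 24.0 FPKM in E14, Suz12GT, Suz12delta and Eednull day 5 cells. Hapln1, a link protein of cartilage matrix, was 0.0129, 0.0844, 11.6 and 5.67 FPKM in this order, while Sox9, the factor that drives Col2a1 in cartilage and is also made by neural progenitors, was 9.43, 7.20, 12.5 and 9.76 FPKM. Matn1, a cartilage matrix protein, was listed at 0 in E14 and Suz12GT and was 0.127 and 0.0614 FPKM in the null lines.

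Over differentiation, wild-type cells had lower values of most collagens at day 5 but not of type IV. In E14 day 5 against E14 ESCs, 5 of 35 genes were higher (18.3% of all genes) and 18 lower (25.8% of all genes), with a median of -1.28 beside -0.20. The 5 type IV genes that passed the minimum lay between 0.27 and 0.65 and 0 of them were called, whereas 6 fibrillar, 5 type VI and 4 FACIT genes were lower, with Col1a1 at -6.17, Col6a3 at -5.11, Col1a2 at -4.90, Col3a1 at -4.73 and Col8a1 at -4.70. The 5 higher genes were Col22a1 at 2.80, a FACIT collagen of tissue junctions, Col2a1 at 2.05, Col11a2 at 2.03, Col24a1 at 1.23 and Col11a1 at 1.18. The 13 fibroblast markers were all lower too, between -8.13 and -1.21 with a median of -2.99, and 0 collagens lay below that range.

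In Suz12delta day 5 against Suz12delta ESCs, 16 of 40 collagens were higher (26.9% of all genes) and 11 lower (12.6% of all genes), with a median of 0.50 beside 0.43. After scaling 14 were higher and 14 lower, without a share of all genes on the scaled values. In Eednull, whose comparison crosses the batch given in the labels, 15 of 39 were higher (18.4% of all genes) and 12 lower (24.8% of all genes), with a median of 0.30 beside -0.08. Type VI chains were lower in both, with Col6a3 at -5.90 in Suz12delta and -5.36 in Eednull beside -5.11 in E14, and Col6a1 at -4.10 and -3.25 beside -4.07. Type I chains were lower with smaller differences than in E14, Col1a1 at -2.53 and -3.57 and Col1a2 at -3.00 and -3.47. Col3a1 was at -0.86 and 0.30 beside -4.73 in E14, Col5a1 at -0.77 and -0.57 beside -2.08, and Col12a1 at -2.75 and -0.79 beside -2.63. The fibroblast markers had medians of -0.89 in Suz12delta and -0.90 in Eednull, with 6 of 13 lower in each and 2 higher in Eednull. Whether the lines differ in these changes was not tested, since each has 1 library a day.

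Relative to the 13 fibroblast markers, type IV and type I collagen parted at day 5. The Col4a1 and Col4a2 sum was 0.752 of the marker sum in E14, 2.61 in Suz12GT, 0.447 in Suz12delta and 0.550 in Eednull day 5 cells, against at most 0.162 in an ESC library. Acta2, a smooth muscle actin, was 11.2 of the 17.7 FPKM of markers in E14 day 5 cells, and without it these values were 2.03, 4.32, 0.641 and 0.786, against at most 0.227 in an ESC library. The type I sum was 0.0626, 0.184, 0.357 and 0.186 of it, against at least 0.443 in an ESC library, and the type VI sum 0.0663, 0.0911, 0.0298 and 0.0223, against at least 0.125. Without Acta2 the type I values stayed below those of the ESC libraries (0.511 at most against 0.616 at least), but the type VI value of E14 day 5 cells, 0.179, was above the 0.173 of E14 ESCs.

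Part of the genes that build collagen were higher in the mutants, and few were lower. Of 27 enzymes, chaperones and crosslinkers of collagen, 26 passed the minimum in each null line against E14 ESCs, and 15 were higher in Suz12delta (18.0% of all genes) and 12 in Eednull (22.4% of all genes), with medians of 1.75 and 0.99. In either line 0 were lower (22.8% and 11.9% of all genes). In CJ7 against E14, 0 of 25 were called, where 15.7% of all genes were higher and 14.7% lower. At day 5 all 27 passed, and 14 were higher in Suz12GT (16.8% of all genes), 19 in Suz12delta (26.6%) and 11 in Eednull cells (21.6%). In the same order 0, 1 and 1 were lower (4.4%, 9.52% and 11.3% of all genes) and 13, 7 and 15 within 2-fold. Lox, which crosslinks fibrils, was 17.9, 12.4, 60.3 and 58.1 FPKM in E14, CJ7, Suz12delta and Eednull ESCs and 0.0795, 1.03, 6.54 and 2.40 FPKM in E14, Suz12GT, Suz12delta and Eednull day 5 cells, the order of type I collagen over the day 5 libraries. Fkbp10, a folding helper of type I collagen, was 15.1, 15.3, 61.1 and 31.8 FPKM in ESCs and 1.05, 5.17, 38.9 and 39.2 FPKM at day 5.

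The prolyl 4-hydroxylase subunit P4ha3 was 1.01, 0.581, 8.37 and 5.13 FPKM in the ESCs, was listed at 0 in E14 day 5 cells and was 1.92, 13.6 and 18.3 FPKM in the Suz12GT, Suz12delta and Eednull ones. Pcolce, which speeds the trimming of fibrillar procollagen, was 36.6, 53.0, 143 and 45.2 FPKM in ESCs and 2.39, 7.69, 47.9 and 47.2 FPKM at day 5. Loxl1, a further crosslinker, was 6.38, 5.94, 24.1 and 8.95 FPKM and then 0.372, 1.01, 6.83 and 4.26 FPKM. Leprel1, a prolyl 3-hydroxylase that acts on type IV collagen, was 0.216, 0.119, 0.352 and 1.89 FPKM in ESCs and 0.596, 2.93, 5.45 and 5.28 FPKM at day 5, so it was higher at day 5 in each line measured on both days, where Lox was lower.

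Receptors of collagen were fewer and mostly low. Of 7 receptor genes, 4 were higher and 0 lower in Suz12delta, and 4 higher and 1 lower in Eednull ESCs against E14, and at day 5, 1 was higher in Suz12GT (16.8% of all genes), 4 in Suz12delta (26.6%) and 4 in Eednull cells (21.6%). The shares of all genes higher in the ESC comparisons were 18.0% and 22.4%, and the shares lower 22.8% and 11.9%. Ddr2, a receptor of fibrillar collagen on mesenchymal cells, was 1.99, 2.04, 18.2 and 4.16 FPKM in E14, CJ7, Suz12delta and Eednull ESCs and 0.0514, 0.123, 0.526 and 0.498 FPKM at day 5. Ddr1, its epithelial relative, was 8.09, 5.54, 12.2 and 7.63 FPKM in ESCs and 27.2, 22.6, 23.2 and 15.6 FPKM at day 5. Itgb1, the beta subunit of the collagen integrins, was 72.2, 134, 198 and 185 FPKM in ESCs and 58.9, 84.3, 90.1 and 88.4 FPKM at day 5. The 2 discoidin receptors thus had opposite orders between the days, Ddr2 as type I collagen and Ddr1 higher at day 5 in each line measured on both days.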

How the data were processed

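Expression was measured by RNA-seq in 8 libraries, 1 for each condition, and groups were taken from the sample labels. The authors deposited a table of FPKM per gene, for which the submitters' processing notes name Bowtie 0.12.7, TopHat 1.3.2, Cufflinks 1.2.1, Cuffdiff and the mouse build mm9 (NCBI build 37). Each of its 8 value columns was assigned to a sample. From these FPKM, used without rescaling, log2 ratios were computed after adding 0.1. Only genes that reached 0.1 FPKM in at least 1 library of a comparison were kept, and adding 0.1 understates the change of low genes. Read counts are unknown, and no test was made, since a condition had 1 library. The ratio code was tested on the E14 ESC values with known fold changes put in and no noise added, which checks the arithmetic only.

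All 43 collagen genes were counted. Values in the 8 libraries are given for each type IV gene and each other collagen that reached 5 FPKM in a library, 23 in all, and the other 20 are given by range and count, some with values beside a result. Genes of the biosynthesis, basement membrane, receptor and marker lists were named if they reached 5 FPKM and differed at least 2-fold in a main comparison, at most 6 a list, of which 1 is not reported here. Lum, Fap and Matn1 were named besides, since they were listed at 0, and Suz12, Eed and Tubb3 as checks of the labels. Members, classes and lists were chosen with earlier results of these data known. The alternatives were to add 1 or 0.01 in place of 0.1, to ask for 1 FPKM or for no minimum, to bring libraries to 1 common 75th percentile (computed on the 17842 genes above 0 throughout), and to take CJ7 as the wild-type ESC. Gene positions are from GENCODE vM1 on build 37, and sequences are from RefSeq windows on GRCm38.p6. Python 3.11.15, NumPy 2.4.6, pandas 2.3.3 and matplotlib 3.10.9 were used.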

Additional observations from a re-analysis of the deposited data

Results flagged for a closer look

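For 3 collagen genes the value at day 5 differed at least 2-fold from that in ESCs in opposite directions in wild-type E14 and in a null line, with 1 library per line and day, and the difference between the lines was not tested. Col9a3 went from 1.63 FPKM in E14 ESCs to a value listed at 0 at day 5, from 0.632 to 8.71 FPKM in Suz12delta and from 1.11 to 5.70 FPKM in Eednull cells. Col13a1, a transmembrane collagen, went from 0.997 FPKM to a value listed at 0 in E14, from 0.380 to 1.41 FPKM in Suz12delta and from 0.642 to 0.763 FPKM in Eednull cells. For Col8a2 the log2 ratios of day 5 over ESCs were -1.28 in E14, 2.04 in Suz12delta and 1.65 in Eednull cells. The listed zeros are 0 FPKM, with the read depth unknown.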

How the results depend on the processing

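No paired analysis was possible because each condition had 1 library, and no library could be left out. The shares of all genes hold for the main setting, and none was taken with another pseudocount, minimum or scaling. With a pseudocount of 1, the count of collagens higher was 9 in Eednull and 1 in CJ7 against E14 ESCs, 9 in Suz12GT and 16 in Eednull against E14 day 5 cells, and, for day 5 against ESCs, 3 in E14, 8 in Suz12delta and 8 in Eednull. The count lower was 0 in Suz12delta, 0 in Eednull and 1 in CJ7 ESCs and 0 in Eednull day 5 cells. With a minimum of 1 FPKM, 11 were higher in Suz12GT day 5 cells and 1 in CJ7 ESCs, and 2, 1 and 3 were lower in Suz12delta, Eednull and CJ7 ESCs. With a pseudocount of 0.01, 5 were lower in Eednull ESCs. With 75th percentile scaling, 2 were lower in Suz12delta ESCs, and the collagen median of CJ7 against E14 turned from -0.17 to 0.0459. With CJ7 as wild type, Col9a3 turned to 1.2025 in Suz12delta and Col4a3 to -0.79 in Eednull ESCs. The other 76 of 94 counts stayed within 1.5 times. For the 125 pairs of gene and comparison at least 2-fold in the report's setting, the alternatives gave 641 values, of which 613 were still at least 2-fold in the same direction, 26 were under 2-fold, 23 of them with a pseudocount of 1, and 2 reversed. Leaving out S100a4, Acta2 or Pth1r from a marker sum was chosen after seeing the data. Scaling moved the median log2 ratio of all genes by 0.36 in Suz12delta, 0.16 in Eednull and 0.22 in CJ7 against E14 ESCs, by 0.14 in Suz12delta against CJ7 ESCs, by -0.15 in Suz12delta day 5 cells, by 0.14 in E14 and by -0.37 in Suz12delta over differentiation. Read depth, which sets the error of values near 0.1 FPKM, is unknown.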
